A study of Rattus norvegicus and Mus musculus with 9 samples.

Results

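The genes described here encode enzymes that detoxify aldehydes, quinones, peroxides and foreign compounds, together with the enzymes that make and recycle glutathione. They were chosen by a rule on the gene symbol, with earlier results of these data known. The rule took aldo-keto reductases (Akr), aldehyde dehydrogenases (Aldh), glutathione peroxidases (Gpx), and microsomal and cytosolic glutathione transferases (Mgst and Gst). It also took Nqo1, Gclc, Gclm, Gsr, Gss, Txnrd1 and Hmox1. The rule found 65 of 14506 named genes in the rat table and 73 of 19938 in the mouse table, 84 in either and 54 under the same symbol in both. Each gene is represented by the probe set with the highest mean signal.

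Arrays measured RNA of embryonic stem (ES) cells from rat, of embryonic fibroblasts from rat and of ES cells from mouse, 3 for each. Both rat groups were of strain DA. The rat ES cells were kept in 3I, a medium named for its inhibitors, which act on the FGF receptor and on the kinases MEK and GSK3, while the fibroblasts were kept in GMEM with 10% serum. Mouse ES cells of strain C57/BL6 grew in that serum medium plus leukaemia inhibitory factor, and their feeder cells were taken away before extraction. No such step is given for the rat ES cultures. Cell type and medium differed together between the rat groups and cannot be told apart in any result below. Separate cultures are not stated for the replicate arrays, and a p-value here reflects only how these arrays scattered. In RNA from bulk cultures, fewer cells of a type and less RNA per cell cannot be told apart.

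Glutathione is a tripeptide made in 2 steps, first by glutamate-cysteine ligase, a complex of the catalytic subunit Gclc and the modifier subunit Gclm, and then by glutathione synthetase, Gss. Glutathione transferases couple it to reactive compounds, glutathione peroxidases spend it to reduce peroxides, and glutathione reductase, Gsr, restores it with NADPH. Aldo-keto reductases and aldehyde dehydrogenases remove aldehydes by reduction and by oxidation. Many of these genes are targets of the transcription factor NRF2, which binds a short sequence called the antioxidant response element.

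Rat signals are log2 values, and the rat array medians lay between 5.71 and 5.74. The arrays fitted their labels: rat ES cells had 6 of 6 ES cell markers called higher and 7 of 7 fibroblast markers called lower. The summed signal of the fibroblast markers was 53.09 to 56.94 on the rat ES arrays and 87.85 to 88.24 on the fibroblast arrays. All 7 were higher on rat ES array 3 than on rat ES array 1, by a median of 0.54. Of 6 epithelial markers, 6 were called higher. Liver is a major site of detoxification, and 7 of 7 liver markers were under every array median in both rat groups and 1 of them was called higher, with summed signals of 31.81 to 33.12 in rat ES cells and 31.20 to 32.86 in fibroblasts. Of 7 macrophage markers, 1 was called lower and none higher, and of 7 primitive endoderm markers, 3 were called lower. Trophoblast markers had 2 called higher and 1 lower of 6, and endothelial markers 2 higher and 1 lower of 5. The part that other cells had in the results was not tested. With 3 arrays a group, precision is limited by that number.

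The rat comparison asked which of these enzymes differed between ES cells and fibroblasts. In rat ES cells the signal of the aflatoxin aldehyde reductase gene Akr7a3 was 106-fold higher, and genes of glutathione synthesis and recycling (Gclm, Gsr), the peroxidase gene Gpx2 and the quinone reductase gene Nqo1 were 4.67-fold to 11.7-fold higher. The microsomal transferase gene Mgst2, the endoplasmic reticulum peroxidase genes Gpx7 and Gpx8 and the mu class transferase gene Gstm5 were 8.13-fold to 21.3-fold lower. For Akr7a3, Gpx2, Mgst2 and Gstm5 the group with the lower signal lay below the array medians, so the size of the fold is uncertain. A gene was called when limma gave a Benjamini-Hochberg adjusted p under 0.05, over all 14506 genes, and a difference of at least 2-fold. By this rule 20 of the 65 genes (30.8%) were called, where 20.7% of all genes were. Of these, 11 were higher in rat ES cells (10.6% of all genes were) and 9 lower (10.1% of all genes). With no fold threshold, 40 of 65 passed, where 56.3% of all genes did. The median log2 difference was 0.09 over the 65 genes and -0.00069 over all genes, and the median size of the difference was 0.45 against 0.32. The groups did not overlap for 46 of the 65 genes (70.8%), against 61.5% of all genes.

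A difference of at least 4-fold was called for 12 of the 65 genes, 7 higher and 5 lower, where 6.86% of all genes reached that size. Of the 45 genes not called, 23 lay below the array medians on every array of both groups. Low expression and an unresponsive probe set cannot be told apart for these. Where 1 group lay below the medians, the size of a fold is uncertain, and this is said beside the gene. Within groups the median SD of the 65 genes was 0.11 in rat ES cells and 0.09 in fibroblasts.

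**Figure D1:**
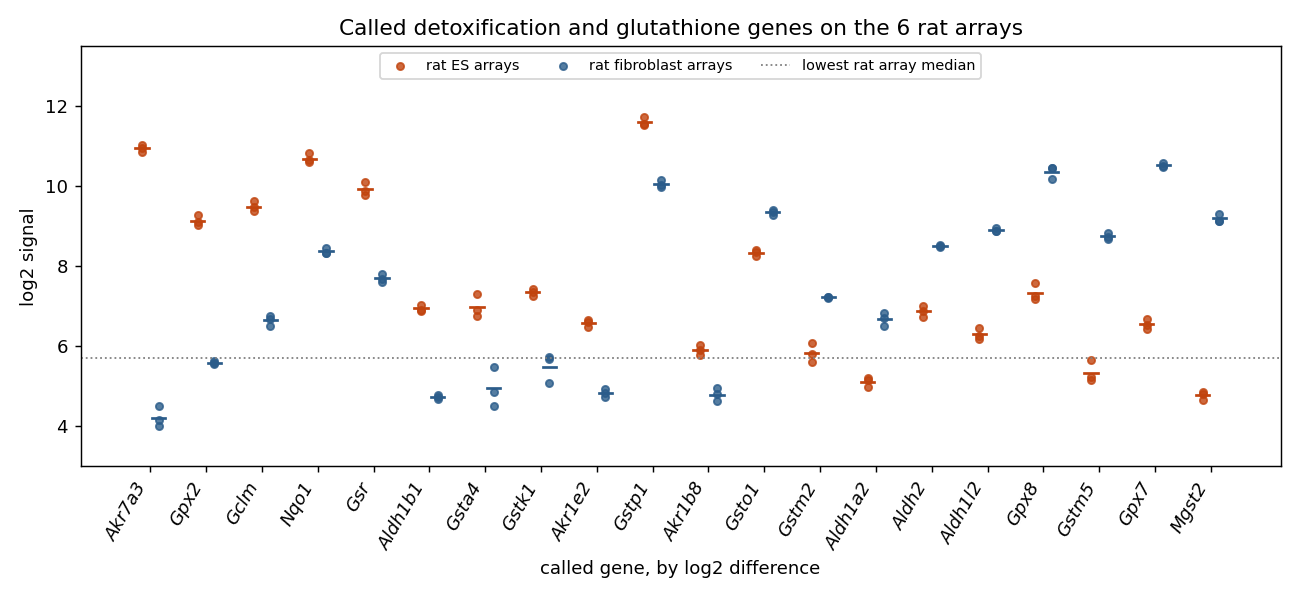
Log2 signal (vertical axis) of the 20 called genes on the 3 rat ES arrays (left of each pair, orange) and the 3 fibroblast arrays (right, blue), ordered by log2 difference, with short bars at the group means and a dotted line at the lowest rat array median. Akr7a3 stands near 11 on the ES arrays and near 4 on the fibroblast arrays, the widest gap among these genes, and the groups do not overlap for any of the 20.

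Glutathione synthesis and recycling held 2 called genes, Gclm and Gsr. Gclm, the modifier subunit of glutamate-cysteine ligase, had signals of 9.62, 9.47 and 9.38 on the rat ES arrays, against 6.51, 6.75 and 6.67 on the fibroblast arrays. The groups were far apart, and all 6 signals lay above the array medians. The log2 difference was 2.85 (SE 0.09, limma adjusted p = 4.55e-08), or 7.19-fold. The catalytic subunit gene Gclc read 9.59, 9.52 and 9.44 on the ES arrays and 8.63, 8.64 and 8.60 on the fibroblast arrays. It did not overlap either, but its log2 difference of 0.89 (95% confidence interval 0.74 to 1.05) was under 2-fold and so not called. The difference between the subunits was not tested.

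Gsr, the reductase that returns oxidized glutathione to its reduced form, had signals of 10.10, 9.87 and 9.78 in rat ES cells, against 7.61, 7.80 and 7.68 in fibroblasts. Its log2 difference was 2.22 (SE 0.10, limma adjusted p = 2.26e-07), or 4.67-fold. Gss, which completes the tripeptide, pointed the other way with 8.12, 7.90 and 7.91 in rat ES cells, against 8.72, 8.77 and 8.81 in fibroblasts. Every ES array lay below every fibroblast array, by a log2 difference of -0.79 (95% confidence interval -0.98 to -0.60), which was under 2-fold. Of the 4 genes of synthesis and recycling, 2 were thus called higher and none lower.

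Nqo1 encodes a flavoprotein that reduces quinones with NAD(P)H, and it is a much used readout of NRF2 activity. Its signals were 10.82, 10.60 and 10.64 in rat ES cells, against 8.47, 8.34 and 8.33 in fibroblasts, well separated and above the medians in both. The log2 difference was 2.31 (SE 0.08, limma adjusted p = 7.46e-08). Txnrd1, the cytosolic thioredoxin reductase, read 9.85, 9.79 and 9.53 in rat ES cells and 8.82, 8.86 and 8.85 in fibroblasts. Hmox1, which degrades haem, read 8.64, 8.93 and 8.97 in rat ES cells and 8.30, 8.14 and 8.20 in fibroblasts. Both lay higher on every ES array, at log2 differences of 0.88 and 0.63 that were under 2-fold and not called.

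The promoters of called genes were searched for the core of the antioxidant response element, because several of these genes are textbook NRF2 targets. RefSeq windows on build GRCr8, from 250 bases before to 50 bases after a gene's start, were found for 51 of the 65 genes by gene ID, and a gene with several windows counted when any held the motif. The motif TGACNNNGC, searched on both strands, occurred in 12 of the 51, and in 14.3% of the 11950 named array genes with a window. It occurred in 3 of 10 called higher, 2 of 5 called lower and 7 of 36 not called. The 5 called genes that hold it are printed 5′ to 3′ on the strand of the gene, with the motif, or its reverse complement, in capitals. Gclm is at chr2:213031885-213032184 (plus strand), Gpx2 at chr6:101229984-101230283 (minus strand), Gstp1 at chr1:210769656-210769955 (minus strand), Gstm5 at chr2:198219519-198219818 (plus strand) and Aldh1a2 at chr8:80758391-80758690 (plus strand).
Gclm: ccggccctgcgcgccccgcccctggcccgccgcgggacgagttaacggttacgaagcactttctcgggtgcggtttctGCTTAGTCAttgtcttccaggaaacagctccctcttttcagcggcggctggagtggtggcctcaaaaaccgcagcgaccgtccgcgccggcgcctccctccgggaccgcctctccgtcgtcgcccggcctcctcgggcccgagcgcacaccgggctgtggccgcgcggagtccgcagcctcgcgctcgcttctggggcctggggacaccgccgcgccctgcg
Gpx2: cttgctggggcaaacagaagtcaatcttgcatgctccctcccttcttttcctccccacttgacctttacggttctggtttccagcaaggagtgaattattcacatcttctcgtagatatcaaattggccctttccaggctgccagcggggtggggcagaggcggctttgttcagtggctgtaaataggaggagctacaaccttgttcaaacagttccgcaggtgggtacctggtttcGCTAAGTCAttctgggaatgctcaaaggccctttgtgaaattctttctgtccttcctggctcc
Gstp1: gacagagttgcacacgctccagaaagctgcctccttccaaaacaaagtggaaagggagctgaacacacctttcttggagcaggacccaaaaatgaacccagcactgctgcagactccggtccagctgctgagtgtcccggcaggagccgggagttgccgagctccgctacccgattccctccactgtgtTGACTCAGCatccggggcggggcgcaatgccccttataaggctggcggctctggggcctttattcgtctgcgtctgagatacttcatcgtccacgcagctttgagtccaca
Gstm5: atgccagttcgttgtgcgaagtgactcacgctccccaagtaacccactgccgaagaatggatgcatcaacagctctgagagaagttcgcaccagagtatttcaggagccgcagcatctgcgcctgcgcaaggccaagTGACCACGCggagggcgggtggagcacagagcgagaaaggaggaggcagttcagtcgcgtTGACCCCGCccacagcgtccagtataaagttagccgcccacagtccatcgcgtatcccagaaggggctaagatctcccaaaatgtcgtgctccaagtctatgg
Aldh1a2: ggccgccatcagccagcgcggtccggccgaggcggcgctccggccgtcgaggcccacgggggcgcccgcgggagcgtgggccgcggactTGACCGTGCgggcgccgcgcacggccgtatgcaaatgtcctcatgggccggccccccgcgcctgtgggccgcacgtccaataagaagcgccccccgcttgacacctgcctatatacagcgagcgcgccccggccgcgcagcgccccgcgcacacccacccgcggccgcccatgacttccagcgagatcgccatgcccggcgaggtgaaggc
The motif begins 172 bases before the start in Gclm, 13 in Gpx2, 61 in Gstp1 and 161 in Aldh1a2. Gstm5, one of the lower genes, holds 2 copies, which begin 113 and 53 bases before the start. The windows of Nqo1, Gclc and Akr7a3 do not hold these letters, which says nothing of sequence outside them. A window of Txnrd1, which was not called, holds the motif. No window was found for Gsr or Hmox1, nor for the lower genes Mgst2, Gpx8, Aldh2 and Aldh1l2, so these were not searched. A match in letters is a description and not a site of binding.

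Glutathione peroxidases split by member. Gpx2, known as the gastrointestinal form and expressed in epithelia, had signals of 9.02, 9.10 and 9.29 in rat ES cells, against 5.55, 5.63 and 5.58 in fibroblasts. The ES arrays were all high and the fibroblast arrays all below the array medians, so the 11.7-fold difference is uncertain in size (log2 difference 3.55, SE 0.08, limma adjusted p = 9.02e-09). Gpx7 and Gpx8 encode peroxidases of the endoplasmic reticulum, where oxidative protein folding produces peroxide. Gpx7 read 6.42, 6.53 and 6.68 in rat ES cells, against 10.47, 10.51 and 10.57 in fibroblasts. Gpx8 read 7.27, 7.57 and 7.17 in rat ES cells, against 10.45, 10.44 and 10.19 in fibroblasts. Both were clearly lower on every ES array, Gpx7 by a log2 difference of -3.97 (SE 0.08, limma adjusted p = 5.51e-09) and Gpx8 by -3.02 (SE 0.12, limma adjusted p = 1.29e-07).

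The other 5 of the 8 glutathione peroxidase genes were not called, with log2 differences from -0.21 to 0.77. Gpx1, the main cytosolic form, averaged 11.32 ± 0.029 in rat ES cells and 11.16 ± 0.033 in fibroblasts (SD, n = 3 each), a difference of 0.17. Gpx4, which reduces lipid hydroperoxides in membranes and guards against ferroptosis, averaged 8.86 ± 0.053 in rat ES cells and 9.06 ± 0.052 in fibroblasts. Gpx3, the secreted form, was higher by 0.77, without overlap. Gpx5 and Gpx6 were under every array median.

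Aldo-keto reductases were called in 3 of 16 genes, all higher in rat ES cells. Akr7a3, whose rat liver enzyme reduces the dialdehyde of aflatoxin, had signals of 11.03, 10.96 and 10.85 in rat ES cells, against 4.50, 4.00 and 4.15 in fibroblasts. The fibroblast arrays lay far below the medians, so its size is uncertain (log2 difference 6.73, SE 0.13, limma adjusted p = 3.76e-09). Its family neighbour Akr7a2 averaged 7.86 ± 0.050 in rat ES cells and 7.70 ± 0.079 in fibroblasts (SD, n = 3 each). The difference of 0.16 (95% confidence interval -0.0045 to 0.32) did not pass (limma adjusted p = 0.0915).

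Akr1e2, an anhydrofructose reductase, averaged 6.58 ± 0.091 in rat ES cells and 4.84 ± 0.095 in fibroblasts (SD, n = 3 each), so the log2 difference was 1.74. Akr1b8, a relative of aldose reductase, averaged 5.91 ± 0.128 and 4.79 ± 0.163 on the same 2 sets of arrays, a difference of 1.12. The fibroblast signals of both lay below the array medians. Aldose reductase itself, Akr1b1, which turns glucose into sorbitol, averaged 9.45 ± 0.077 in rat ES cells and 9.74 ± 0.059 in fibroblasts (SD, n = 3 each), and its other probe set gave a difference of 0.15, which did not pass. Akr1a1, the aldehyde reductase of broad substrate range, was at 11.56 ± 0.024 in rat ES cells and 11.72 ± 0.029 in fibroblasts. All 7 Akr1c genes, the hydroxysteroid dehydrogenase branch, were under every array median, and their log2 differences ran from -0.29 to 0.13.

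**Figure D2:**
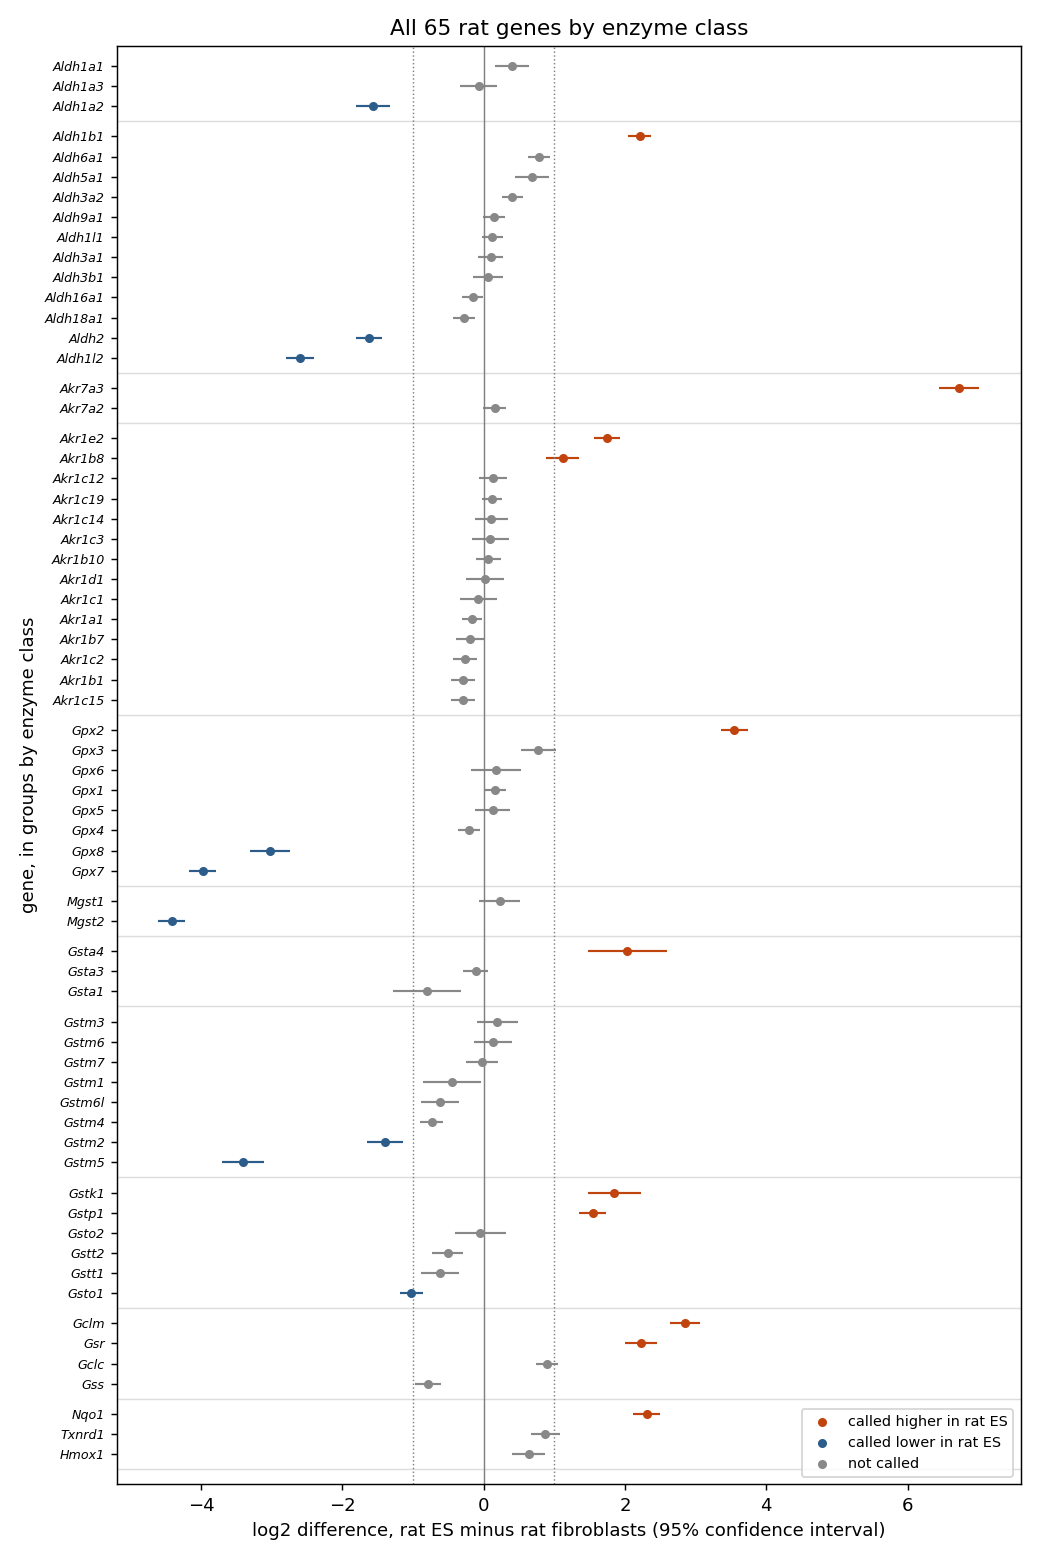
Log2 difference, rat ES minus rat fibroblasts (horizontal axis), for all 65 genes in groups by enzyme class (vertical axis), with 95% confidence intervals from limma and dotted lines at 2-fold. Called genes in both directions occur among the aldehyde dehydrogenases and the glutathione peroxidases. The aldo-keto reductases hold 3 called genes of 16, all of them higher.

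Aldehyde dehydrogenases were called in 4 of 15 genes (26.7%, against 20.7% of all genes), 1 higher and 3 lower. Aldh1b1, a mitochondrial enzyme for acetaldehyde and other short aldehydes, had signals of 7.03, 6.92 and 6.89 in rat ES cells, against 4.74, 4.69 and 4.78 in fibroblasts. The fibroblast arrays lay below the medians, and the log2 difference was 2.21 (SE 0.07, limma adjusted p = 4.03e-08). Aldh1l2, the mitochondrial formyltetrahydrofolate dehydrogenase, went the other way with 6.19, 6.27 and 6.47 in rat ES cells, against 8.96, 8.88 and 8.89 in fibroblasts. The gap was wide beside the spread of either group (log2 difference -2.60, SE 0.09, limma adjusted p = 4.90e-08). Aldh2, the main mitochondrial enzyme of acetaldehyde removal, averaged 6.88 ± 0.136 in rat ES cells and 8.51 ± 0.028 in fibroblasts (SD, n = 3 each), so the log2 difference was -1.62 (limma adjusted p = 5.04e-07).

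The retinaldehyde dehydrogenases, which make retinoic acid, included 1 called gene. Aldh1a2, the enzyme of the early embryo, averaged 5.12 ± 0.124 in rat ES cells, below the array medians, and 6.68 ± 0.169 in fibroblasts (SD, n = 3 each). Its log2 difference was -1.56 (SE 0.10, limma adjusted p = 2.58e-06). Aldh1a1 and Aldh1a3 were under every array median, with differences of 0.40 and -0.07. Among the 9 other aldehyde dehydrogenases not called, differences ran from -0.28 to 0.78. Aldh18a1, which makes a precursor of proline, averaged 9.72 ± 0.051 in rat ES cells and 10.01 ± 0.045 in fibroblasts (SD, n = 3 each).

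Among 17 cytosolic and kappa class glutathione transferase genes, 3 were called higher and 3 lower (35.3% together, against 20.7% of all genes). Gsta4, an alpha class enzyme for lipid aldehydes such as hydroxynonenal, had signals of 6.75, 7.30 and 6.92 in rat ES cells, against 4.87, 5.49 and 4.50 in fibroblasts. Its arrays were more scattered than those of the other called genes, but the groups did not overlap (log2 difference 2.03, SE 0.24, limma adjusted p = 9.98e-05). A second probe set of Gsta4 gave a difference of 1.90, and the fibroblast signals of the first lay below the medians. Gstk1, the kappa class enzyme of mitochondria and peroxisomes, averaged 7.35 ± 0.092 in rat ES cells and 5.49 ± 0.356 in fibroblasts (SD, n = 3 each). It was higher by 1.85, but the fibroblast mean lay below the array medians, so the size is uncertain. Gstp1, the pi class enzyme common in proliferating and tumour cells, averaged 11.60 ± 0.107 in rat ES cells and 10.06 ± 0.095 in fibroblasts, so it was higher by 1.54 (limma adjusted p = 7.43e-07).

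In the mu class, 2 of 8 genes were called lower and 0 higher (25%, against 20.7% of all genes called in either direction). The log2 differences of the 8 genes had a median of -0.54. Gstm5 had signals of 5.23, 5.15 and 5.65 in rat ES cells, against 8.69, 8.73 and 8.83 in fibroblasts. The ES arrays lay below the medians, and array 3 was the highest of them. The log2 difference was -3.40 (SE 0.13, limma adjusted p = 9.34e-08). Gstm2 averaged 5.83 ± 0.235 in rat ES cells and 7.23 ± 0.015 in fibroblasts (SD, n = 3 each), so the difference was -1.40. Gsto1, an omega class enzyme that reduces mixed disulfides and dehydroascorbate, averaged 8.33 ± 0.078 in rat ES cells and 9.36 ± 0.061 in fibroblasts. Its difference of -1.02 came to -0.98 without rat ES array 1, and to -0.996 without fibroblast array 2, both just under 2-fold. Gsta1 was not called at -0.80, but was called at -1.03 without rat ES array 3.

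Mgst2, a membrane transferase that can also make leukotriene C4, had signals of 4.82, 4.86 and 4.66 in rat ES cells, against 9.30, 9.14 and 9.14 in fibroblasts. All ES arrays lay below the medians, so the 21.3-fold lower signal is uncertain in size (log2 difference -4.41, SE 0.08, limma adjusted p = 3.76e-09). Mgst1, the other microsomal gene of the rat table, differed by 0.23 with overlapping groups. The 9 called lower genes summed to 56.21, 56.77 and 56.46 on the 3 rat ES arrays, and 5 of the 9 were higher on array 3 than on array 1. Their median difference between these 2 arrays was 0.10, against 0.54 for the fibroblast markers.

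Nearest to the 2-fold threshold, Gsto1 (-1.02) and Akr1b8 (1.12) lay just inside, while Gclc (0.89) and Txnrd1 (0.88) lay just outside.

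In the RefSeq gene order of the rat assembly GRCr8, 32 of the 65 genes lay in 10 groups with another of the 65 at most 3 protein-coding genes away. Of the 20 called genes, 6 lay in such groups (Akr7a3, Akr1e2, Akr1b8, Gstm5, Gstm2 and Gsto1) and 14 did not. Akr7a3, called higher by 6.73, stands next to Akr7a2, which was not called. In the mu class cluster of 8 genes, Gstm5 at 1 end differed by -3.40, and the next called gene was Gstm2, with log2 differences between -0.62 and 0.20 for the 4 genes between them. Akr1e2, higher by 1.74, stands beside Akr1c2, which differed by -0.26. Genes of such clusters resemble each other in sequence, and cross-hybridization between their probe sets was not tested.

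**Figure D3:**
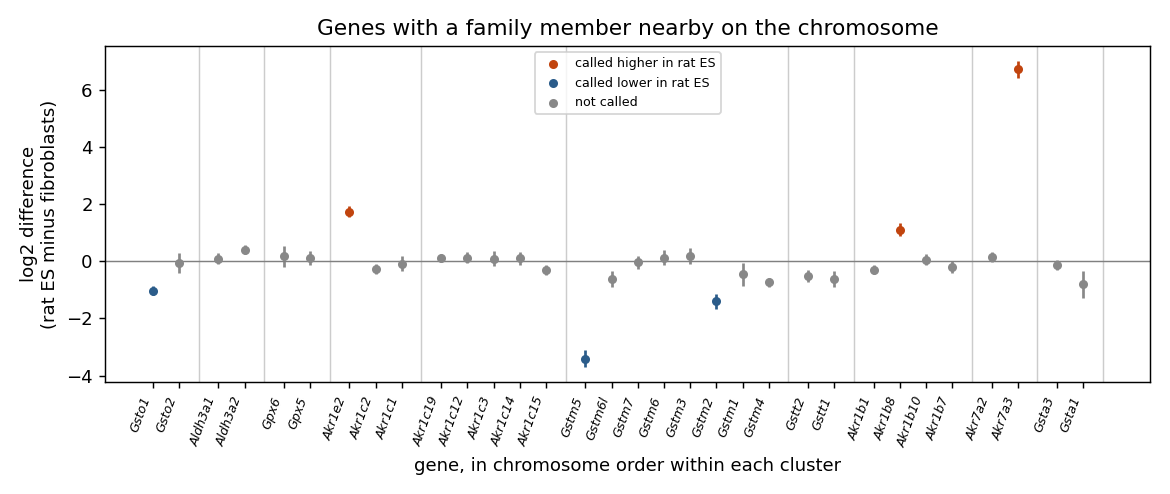
Log2 difference, rat ES minus rat fibroblasts (vertical axis, with 95% confidence intervals from limma), for the 32 genes that lie near a family member, in chromosome order within each of the 10 groups (horizontal axis). Of the 32, 6 are called (orange higher, blue lower), among them Akr7a3 beside Akr7a2 and Gstm5 beside Gstm6l, which were not called.

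The genes around these enzymes were read from 4 further lists, of glutathione supply, peroxide and superoxide removal, NRF2 regulators and targets, and other phase 1 and phase 2 enzymes. Together 23 of their 127 measured genes were called, 8 higher and 15 lower, or 18.1%, near the 20.7% of all genes. In glutathione supply, 2 of 31 were called higher and 5 lower. The 2 enzymes that turn homocysteine into cysteine moved in opposite directions. Cbs, which makes cystathionine, averaged 8.55 ± 0.345 in rat ES cells and 5.37 ± 0.206 in fibroblasts (SD, n = 3 each), so the log2 difference was 3.19 (limma adjusted p = 7.94e-07). Cth, which cleaves cystathionine to release cysteine, averaged 4.80 ± 0.279 in rat ES cells and 8.33 ± 0.173 in fibroblasts, so the difference was -3.52 (limma adjusted p = 1.66e-07). The fibroblast signals of Cbs and the ES signals of Cth lay below the medians. The efflux pump gene Abcb1b was lower in rat ES cells, at -3.66. The membrane peptidase gene Anpep was higher by 1.83, with fibroblast signals below the medians.

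Among 24 genes of peroxide and superoxide removal, 2 were called higher and 5 lower. The mitochondrial carrier gene Ucp2 was higher by 1.88, while the extracellular superoxide dismutase gene Sod3 differed by -2.11, the thioredoxin inhibitor gene Txnip by -1.47 and the peroxiredoxin gene Prdx5 by -1.46. The ES signals of Sod3 lay below the medians. NRF2 regulators and targets outside the symbol rule had 3 called higher and 3 lower of 28. Nqo2, a relative of Nqo1 whose fibroblast signals lay below the medians, was higher by 1.40, whereas the small Maf gene Mafk, which encodes a partner of NRF2, differed by -1.45, malic enzyme Me1 by -1.38 and the epoxide hydrolase Ephx1 by -1.12. The genes of NRF2 and its inhibitor, chosen after their values were seen, were not called. Nfe2l2 averaged 9.36 ± 0.048 in rat ES cells and 9.24 ± 0.041 in fibroblasts (SD, n = 3 each), and Keap1 averaged 7.80 ± 0.169 in rat ES cells and 7.70 ± 0.215 in fibroblasts.

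Other phase 1 and phase 2 enzymes had 1 called higher and 2 lower of 44, and 27 of the 44 were under every array median. The called genes were the sulfotransferase Sult1c2 (1.76), the cytochrome P450 gene Cyp1b1 (-3.44) and its regulator Ahr, the receptor for dioxin-like compounds (-2.97). The rat ES mean of Cyp1b1, 5.14, lay below the medians, and so did both means of Sult1c2, 4.87 in rat ES cells and 3.10 in fibroblasts. Ahr averaged 5.59 ± 0.249 in rat ES cells and 8.56 ± 0.068 in fibroblasts (SD, n = 3 each). This rat ES mean also lay below the medians, so the size of its difference is uncertain.

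**Figure D4:**
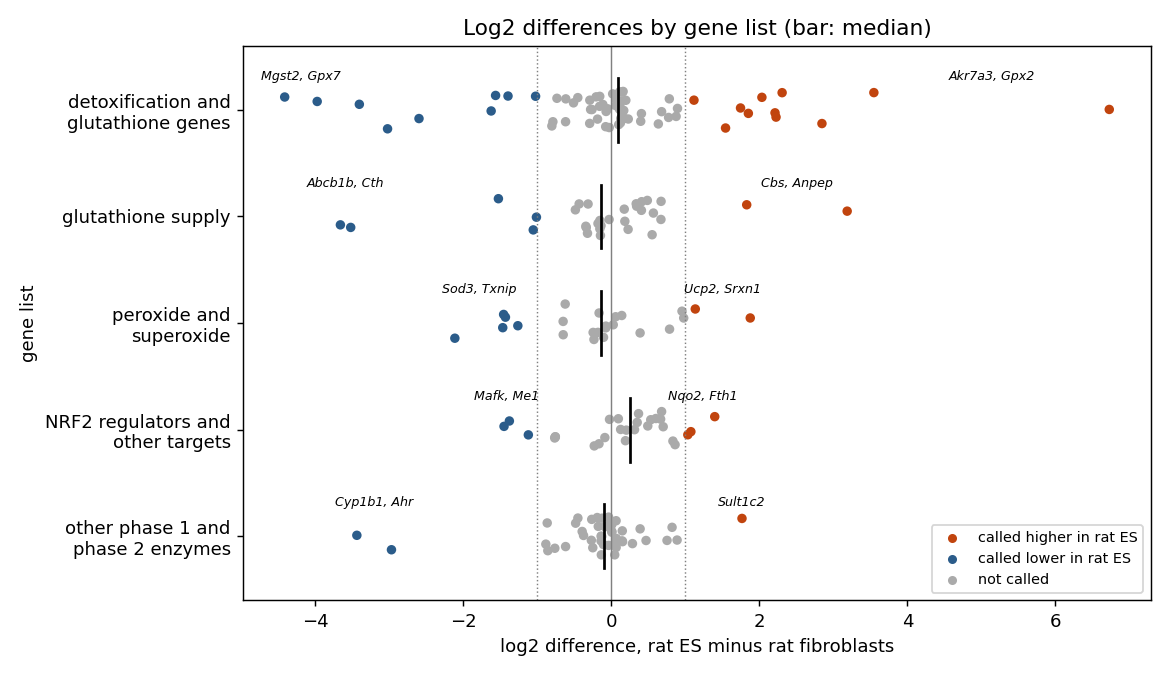
Log2 difference, rat ES minus rat fibroblasts (horizontal axis), of each gene in the 65-gene set and in 4 related lists (vertical axis), with called genes coloured, a bar at each median, dotted lines at 2-fold, and up to 2 of the widest called differences named in each direction. Medians of all 5 lie between -0.14 and 0.26, and each holds called genes on both sides.

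The second comparison set rat ES cells beside mouse ES cells. The 2 tables come from different platforms and were normalized separately, so each gene was ranked within its own array, as a percentile among the 12114 symbols found in both tables. Probe sets differ between the platforms, and in tandem families a shared symbol need not mark the same gene, so species, medium and probe set cannot be told apart. The mouse arrays shared many identical values: 40 of the 73 mouse genes had the same value on all 3 arrays. The mouse arrays therefore do not show the spread between cultures, and the percentiles are given with no test.

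Gclm and Gsr stood at similar ranks in ES cells of both species, while Nqo1 did not. Gclm lay at percentiles 91.8, 90.8 and 91.4 on the mouse ES arrays, 92.7, 91.5 and 90.8 on the rat ES arrays, and 46.6, 50.5 and 49.5 on the rat fibroblast arrays. Gsr averaged 91.7 in mouse ES cells, 94.4 in rat ES cells and 67.7 in rat fibroblasts. The other genes of synthesis were further apart. Gclc averaged 86.5 in mouse ES cells, 91.8 in rat ES cells and 82.6 in rat fibroblasts, so the mouse mean was nearer to the fibroblasts. Gss was at 58.8, 71.1 and 84.4 in the same order of cells, a mouse minus rat ES difference of -12.3 points. Txnrd1 averaged 96.4 in mouse ES cells, 93.2 in rat ES cells and 85.2 in rat fibroblasts, and Gstp1 was at 98.0, 99.2 and 95.2 in the same order of cells. Nqo1, in contrast, lay at 52.1, 39.4 and 50.4 on the mouse ES arrays, 97.9, 97.3 and 97.5 on the rat ES arrays, and 80.4, 78.2 and 78.9 on the rat fibroblast arrays. Its mouse ranks lay below those of both rat groups, with a mouse minus rat ES difference of -50.3 points, and it was one of the mouse genes with 3 different values. Hmox1 averaged 92.7 in mouse ES cells, 84.6 in rat ES cells and 76.7 in rat fibroblasts. For Gstp1, mouse probe sets shared with Gstp2 were left out. They read 8.30 and 8.37 on mouse ES array 1, against 10.16 for the probe set ranked, so the rank of Gstp1 depends on the probe set.

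Gstk1, Mgst1, Gpx2, Gpx8 and Aldh3a2 had the next widest margins below rat ES cells. The mouse ES arrays put Gstk1 at 30.0, 29.5 and 30.1, against a mean of 60.4 in rat ES cells. Mgst1 was at 5.35, 5.17 and 5.36 in mouse ES cells, against a mean of 33.9 in rat ES cells. Gpx2 was at 64.1, 65.4 and 61.6 in mouse ES cells, a difference from rat ES cells of -24.5 points, though still above the rat fibroblast mean of 32.4. Gpx8 (36.6, 35.6 and 36.9) and Aldh3a2 (54.1, 54.6 and 54.0), a fatty aldehyde dehydrogenase, differed from rat ES cells by -23.8 and -22.7 points.

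Ranks were higher in mouse ES cells by the widest margins in Gstm3, Gsta4, Aldh2, Gstm1, Akr1b10 and Aldh3b1. Gsta4 lay at 98.9 on all 3 mouse ES arrays to this precision, against 51.4, 59.6 and 53.1 on the rat ES arrays. Aldh2 was at 95.9, 96.3 and 95.8 in mouse ES cells, above both the rat ES mean of 53.0 and the rat fibroblast mean of 81.1. Gstm3 (65.5, 66.7 and 65.4 in mouse ES cells) lay 52.7 points above rat ES cells, and Gstm1 (79.3, 80.6 and 79.0) lay 40.0 points above. Akr1b10 (41.9, 41.8 and 42.0) and Aldh3b1 (43.0, 44.2 and 43.3) lay 35.1 and 29.6 points above. Those 4 genes were not called in the rat comparison. The signals of Gstm3, Akr1b10 and Aldh3b1 lay below the array medians in both rat groups, at mean rat ES percentiles of 13.15, 6.82 and 13.93. Low expression and an unresponsive rat probe set cannot be told apart for these.

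Of the 54 shared genes, 27 ranked higher on every mouse ES array than on every rat ES array, where 44.9% of all shared symbols did, and 24 ranked lower, where 42.5% did. Means at least 20 points apart were found for 15 of the 54 (27.8%), against 18.7% of all shared symbols. Mouse ES ranks lay nearer to rat ES cells than to rat fibroblasts for 29 of the 54, where 57.1% of shared symbols did, which is near that background. Among the 18 shared genes called in the rat comparison, 13 lay nearer to rat ES cells, beside 66.5% of all shared symbols so called. The split was 7 of 9 among those called higher, beside 59.0% of shared symbols called higher, and 6 of 9 among those called lower, beside 74.3%. Those nearer to fibroblasts were Nqo1 and Gstk1 among the genes higher in rat ES cells, and Aldh2, Gstm2 and Gsto1 among the lower ones. Both endoplasmic reticulum peroxidases ranked lower in ES cells of either species than in rat fibroblasts. Gpx7 was at a mean percentile of 51.2 in mouse ES cells, 48.2 in rat ES cells and 96.9 in rat fibroblasts, and Gpx8 was at 36.4, 60.2 and 96.4 in the same order of cells. Mgst2 was at 31.6 in mouse ES cells, 19.6 in rat ES cells and 89.1 in rat fibroblasts.

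**Figure D5:**
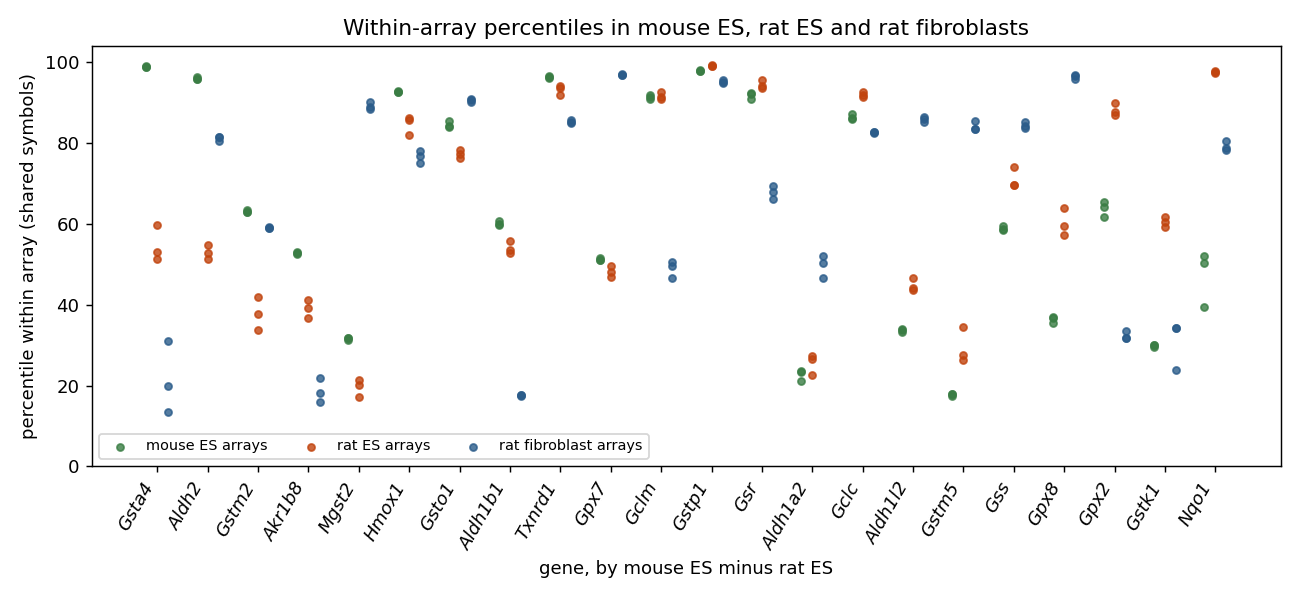
Percentile among shared symbols within each array (vertical axis) for the 18 shared called genes and the 4 other single genes (Gclc, Gss, Txnrd1 and Hmox1), with the 3 mouse ES arrays (green), the 3 rat ES arrays (orange) and the 3 rat fibroblast arrays (blue), ordered by mouse ES minus rat ES. Gsta4 stands at the left with mouse ES near 98.9, and Nqo1 at the right with mouse ES arrays between 39.4 and 52.1 and rat ES arrays above 97.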

How the data were processed

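Single-stranded DNA made from total RNA was labelled with biotin and hybridized to 1 array per sample, per the labels' protocols. Values are log2 signals that the authors deposited per probe set, in a table of 6 rat arrays and one of 3 mouse arrays. The log2 scale was read from the values, and how the background was corrected and the arrays normalized is not given in the sources used here.

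Probe sets were named through the platform annotation. Those with several symbols (323 rat, 1621 mouse) or none listed (13582 rat, 12147 mouse) were left out. Gene IDs of all 65 rat genes were found in the RefSeq table.

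The rat groups went into limma (version 3.58.1, R version 4.3.3) with group as the single term and no filter on level. The fit was tested on simulated data. Members, lists and tests were chosen with earlier results of these data known. Every called gene is named, with values on each array for those at least 4-fold different and the 7 single genes. Among genes not called, the 5 with the highest mean are named, and in the other lists up to 4 called genes each. The mouse comparison names the 6 widest rank differences in each direction.

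Deviations of same-numbered rat arrays correlated at -0.00044, 0.031 and -0.000296, so samples were left unpaired. Any 2 rat replicates had up to 30 of 29215 values in common, while mouse arrays shared 16691 to 20845 of 35557. Alternatives changed the normalization, filter, probe set rule, thresholds, moderation and arrays.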

Additional observations from a re-analysis of the deposited data

How the results depend on the processing

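With the replicate number as a block, 11 genes were called higher and 9 lower, the same counts as without it, and the related lists kept 8 and 15. Quantile normalization, median centring, dropping genes under the 25th percentile in mean level, averaging a gene's probe sets, each probe set apart and trended robust eBayes kept every count of called genes within 1.5 times. With no fold threshold, 20 of the 65 genes were called higher and 20 lower, and in the related lists 41 and 37. At 4-fold the counts were 7 and 5, and 1 and 5 in the related lists. Restricted to the upper part of genes, above the median level, 7 of the 65 genes were called higher and 8 lower. The related lists had 4 and 11. Aldh1b1, Gsta4, Akr1e2 and Akr1b8, called higher without this filter, and Aldh1a2, called lower, fell below that level and were not tested. Leaving out each array gave 11 called higher each time and 8 to 10 lower, with 7 to 8 and 14 to 15 in the related lists. The groups then did not overlap for 47 to 50 genes, a number that cannot fall below the 46 of all arrays. Of 255 log2 differences of called genes under other settings, 253 kept their call and none changed sign. The exceptions were both of Gsto1, at -0.98 and -0.996, without rat ES array 1 and without fibroblast array 2. The filters on level, trended robust eBayes and the block leave a log2 difference itself unchanged, so its sign could not change there. Changed thresholds were not among these settings. In the mouse comparison, using only genes with 3 different mouse values left 9 genes, of which 4 ranked higher in mouse ES cells, 3 lower and 4 nearer to rat ES cells. Using only called genes, an alternative added after seeing the data, left 13 nearer. Leaving out each array gave 27 higher, 24 to 26 lower and 28 to 30 nearer. Here too, the numbers higher and lower could only stay or rise.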

Other observations

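Probe sets with several symbols were left out of the comparisons. On the 6 rat arrays, 3 such probe sets carried a symbol of these families, and none was called when every probe set was fitted. The probe set shared by Aldh4a1 and a taste receptor gene averaged 6.32 in rat ES cells and 6.24 in fibroblasts. Both probe sets shared by Gsta5 and Gsta2 lay below the array medians, with means of 3.56 and 3.79 in rat ES cells and 3.40 and 3.96 in fibroblasts. On the mouse arrays, 7 probe sets with several symbols carried a symbol of these families and were not ranked.

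In the mouse table, 19 genes of these families had no partner of the same symbol in the rat table. Their mean percentiles among all named mouse genes ranged widely. Aldh3b3 was at 95.8, Akr7a5 at 71.7, Gstz1 at 62.5, Mgst3 at 55.5 and Akr1e1 at 35.4. The called rat genes Akr7a3 and Akr1e2 had no mouse gene of the same symbol, so no mouse rank was read for them. Whether Akr7a5 or Akr1e1 is the counterpart of either was not tested. The mouse Akr1c genes without a rat partner, among them Akr1c20 at 9.0 and Akr1c6 at 4.7, stood low, as did the Akr1c genes measured in rat.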
